A study of Mus musculus with 2 samples.

Results

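The genes described here encode the cytosolic translation initiation and elongation factors of mouse skeletal muscle, with the termination factors Etf1 and Gspt1 and the poly(A)-binding proteins Pabpc1 and Pabpc4. They were chosen by name, as every array gene whose symbol is Eif or Eef followed by a number, plus those 4 genes, with the names beginning Eif4ebp left out. This gave 67 genes on 97 probes. Of these genes, 66 were measured, out of 15753 measured genes in all. The exception was Eif4e1b, whose 2 probes were not well above background on either array. The name rule also takes in genes that are not translation factors. Among them are 4 kinases that act on eIF2 and 4 argonautes that the array lists under their old Eif2c names. Eef2k, a kinase that acts on elongation factor 2, is another. The rule leaves out 9 probes whose gene has since been renamed to fit it.

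The cast mice were male C57BL/6 mice aged 9 weeks that had worn a plaster cast for 11 days, and the control mice were of the same strain, sex and age without a cast. A cast keeps a limb from being moved and loaded. RNA of the gastrocnemius, the large calf muscle, was pooled within each group, from 6 mice per pool as the labels are read here. The Cy3-labelled cRNA of each pool went onto 1 whole-genome array with probes of 60 bases. Each group is therefore n = 1 array, there is no replicate and no test, and array and group cannot be told apart. Every difference describes these 2 pools. Signals are given as scaled signals, in which the 75th percentile of each array's gene probes is 100, and differences as log2 ratios of cast over control. The ± after a log2 ratio is the SD expected from the spread of repeated spots at that brightness. It covers the error of single spots on 1 array and not the spread between animals or pools.

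Of the gene probes, 56.8% were well above background on the cast array and 60.6% on the control array, and none was saturated. The muscle fibre markers were bright on both, with Acta1, skeletal actin, at 44171 in cast muscle and 64428 in control muscle. Over the 9 fibre markers the scaled signals summed to 366886 in cast muscle and 434354 in control muscle, with a median log2 ratio of -0.21. In bulk muscle RNA, fewer cells of a type and less RNA per cell cannot be told apart.

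Translation of an mRNA begins when initiation factors load the small ribosomal subunit with the initiator tRNA and bring it to the capped end of the mRNA. The eIF2 complex carries the initiator tRNA, eIF2B recharges eIF2 with GTP, eIF3 organises the small subunit, and the eIF4 factors bind the cap and unwind the leader. Elongation factor 1A then delivers each aminoacyl-tRNA and elongation factor 2 moves the ribosome along. In adult skeletal muscle of mice the 1A factor is made from Eef1a2, which replaces Eef1a1 after birth, while Eef1a1 serves most other cell types.

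The probes behind the results are shown first, because with 1 array per group each value rests on what a probe can bind. For 17 of the 97 member probes the array lists a further RefSeq transcript that was not matched to the same gene. Among them are the brighter Eef1a1 probe, both Eif3c probes, both Eif2s3x probes and the brighter Eif2s2 probe. Whether these probes bind another transcript was not tested. Probe coordinates are on mm9, from the array files. Gene models on that build were not used, so exon, intron and untranslated positions are not given. The 2 probes of Eef1a1 lie on the minus strand of chromosome 9, at chr9:78326435-78326494 and chr9:78326385-78326444, and overlap by 10 bases, in capitals below. They therefore read adjoining stretches of the transcript that overlap in part, and are not taken as independent measurements. The last 30 bases of the first and the first 30 bases of the second are shown.

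Eef1a1, upstream probe: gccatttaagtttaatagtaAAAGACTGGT

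Eef1a1, downstream probe: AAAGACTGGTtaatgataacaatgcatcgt

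The single Eef1a2 probe lies at chr2:180884427-180884486 on the minus strand. It is shown whole because the comparison of the pair depends on the probes telling the genes apart. The capitals mark its longest run that also occurs in an Eef1a1 probe, 8 bases of 60.

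Eef1a2: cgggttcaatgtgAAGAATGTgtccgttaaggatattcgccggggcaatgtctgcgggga

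Eef2k, the kinase that phosphorylates and inhibits elongation factor 2, had the largest log2 ratio of the group and is read by a pair of separate probes on the plus strand of chromosome 7. The first lies at chr7:128038721-128038780. The second is listed at chr7:128043027-128046821, a span of 3795 bases for 60 bases of probe, so its letters are not contiguous in the genome.

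Eef2k, upstream probe: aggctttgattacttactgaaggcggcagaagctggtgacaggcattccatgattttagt

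Eef2k, downstream probe: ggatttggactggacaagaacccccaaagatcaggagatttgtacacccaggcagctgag

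Eif3c and Pabpc4 are the eIF3 subunit with the largest log2 ratio and the only member at least 1.5-fold lower. The upstream Eif3c probe lies at chr7:133707950-133708009 on the minus strand and the Pabpc4 probe at chr4:122975265-122975324 on the plus strand.

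Eif3c, upstream probe: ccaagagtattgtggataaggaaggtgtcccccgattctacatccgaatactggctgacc

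Pabpc4: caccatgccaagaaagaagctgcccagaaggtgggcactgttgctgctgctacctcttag

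Gspt1, Eif2s2 and Eif4e are shown because their own probes differ from each other. The Gspt1 probes lie at chr16:11220505-11220564 and chr16:11216385-11216444 on the minus strand, and their last 30 bases are given. The downstream Eif2s2 probe lies at chr2:154697153-154697212 on the minus strand, again with its last 30 bases. Capitals mark the hexamer AATAAA, the usual letters of a poly(A) signal, which was found as spelled, on the probe strand only, in 11.3% of the 97 member probes and 12.6% of all probes. Its presence in a probe does not show that the site is used.

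Gspt1, upstream probe: gttaaaaagacaactaccatattAATAAAa

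Gspt1, downstream probe: gaactggagagattaaagattattctgtcc

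Eif2s2, downstream probe: AATAAAgcaaggatcagtgcctcctgtgta

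Of the 4 Eif4e probes, a pair lies toward the 5′ side of the other pair. One of them, at chr3:138190152-138190211 on the plus strand, matched the RefSeq promoter sequence of Eif4e on GRCm38.p6 at chr3:138527188-138527247, from 80 to 21 bases before an annotated start. The table lists another Eif4e start farther upstream, so this stretch lies before only one of the gene's annotated starts. Capitals mark the palindrome CACGTG, the E-box letters bound by MYC family proteins.

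Eif4e, 5′ probe: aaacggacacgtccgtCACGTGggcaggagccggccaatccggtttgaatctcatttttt

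Translation factor genes were, as a group, slightly brighter on the cast array than other genes. Of the 66 measured, 54 (81.8%) had a log2 ratio above 0, against 46.7% of all 15753 measured genes. Their median log2 ratio was 0.27, against -0.03 for all genes. The members ranged from -0.65 to 1.27. At least 1.5-fold higher were 9 members (13.6%), against 7.1% of all genes. At least 1.5-fold lower was 1 member (1.52%), against 8.26% of all genes. At least 2-fold higher were 3 members (4.55%), namely Eef2k, Eif3c and Eef1a1, against 2.25% of all genes, and none was at least 2-fold lower, against 2.1% of all genes.

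Their probes were mostly bright, with 58 of the 66 genes at or above the median signal of measured genes and 22 in the brightest of 10 equal bins. Over all genes the median log2 ratio of a bin was lowest at -0.12, in the second dimmest bin, and highest at 0.05, in the brightest. Among the 2840 other genes at or above the members' median level, 52.8% had a log2 ratio above 0 and the median was 0.03. Genes with ribosomal protein names, the other large part of the translation machinery, had a median of 0.37 over 83 genes, with 80 above 0.

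**Figure D1:**
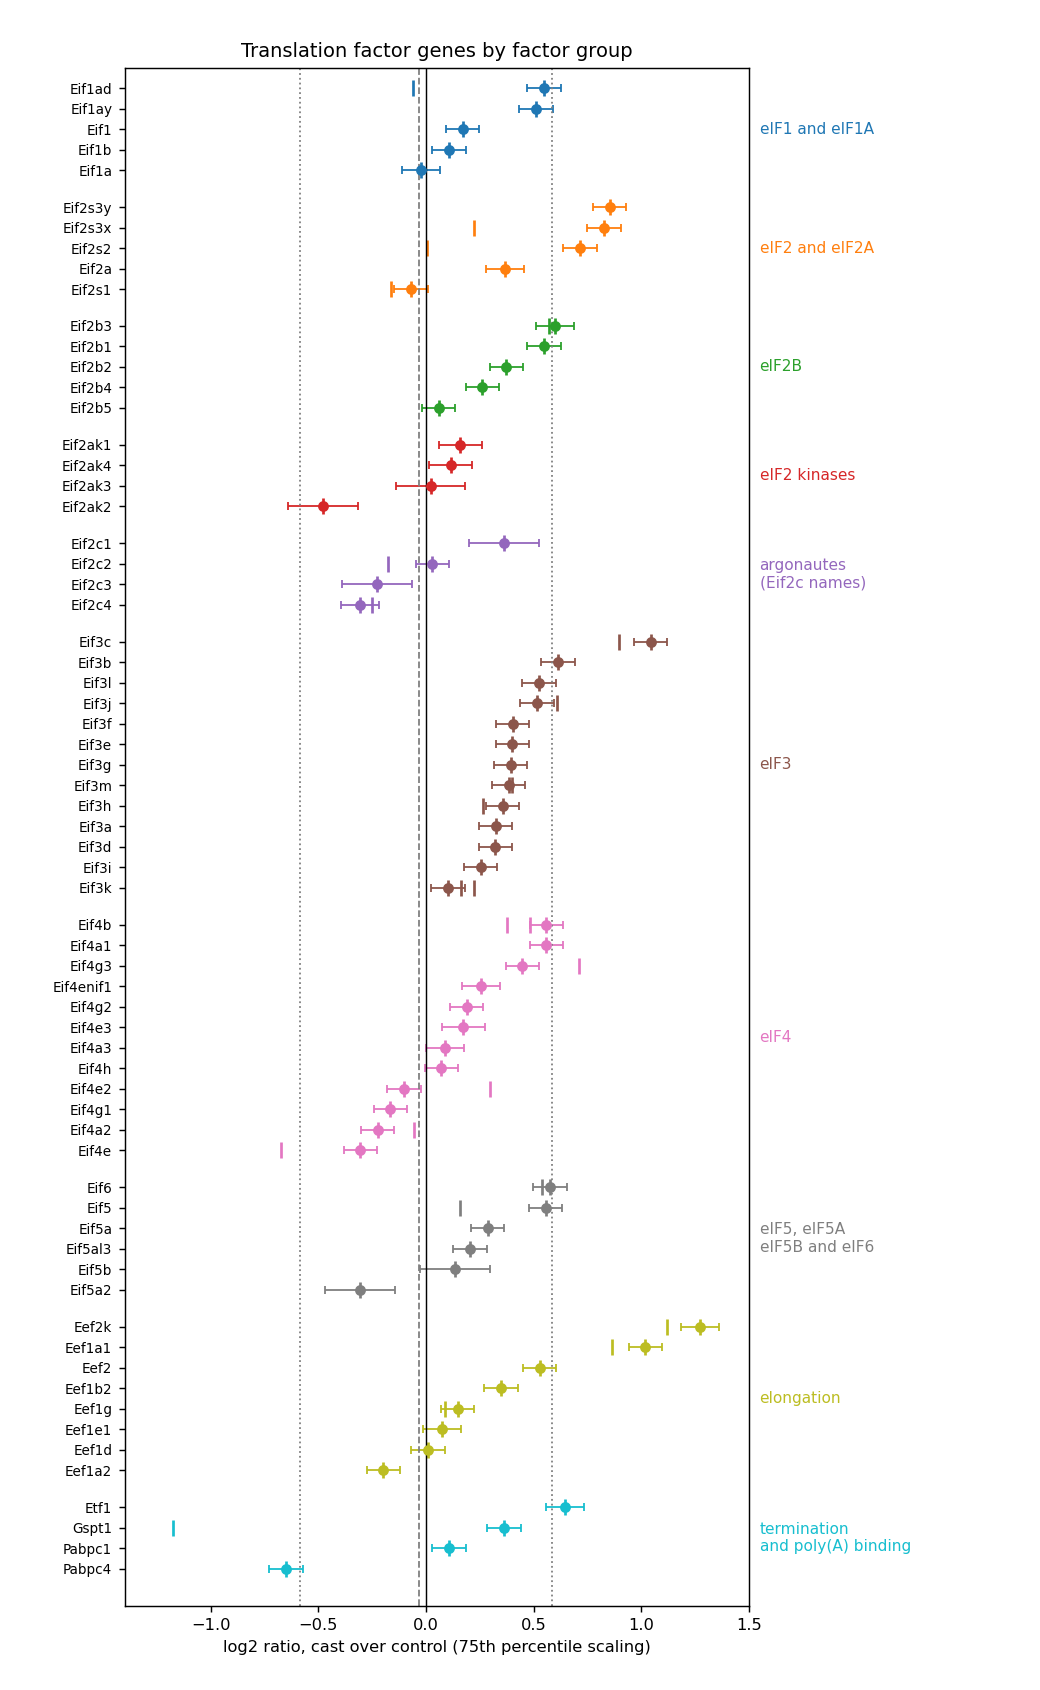
Log2 ratio of cast over control for each of the 66 measured genes by factor group, with circles for the gene value, short vertical ticks for each probe well above background on both arrays, and horizontal bars for ± 1 spot-level SD. Dotted lines mark 1.5-fold, the dashed line the median of all genes at -0.03. All 13 eIF3 subunits lie right of 0, and the Gspt1 ticks lie on both sides of it.

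The size of these differences depends on how the arrays were brought to one scale, while the distance from other genes did so less. On unscaled signals, and with the spike-in controls as the scale, the median of all genes moved to 0.31 and 0.32, and the median of the translation factors to 0.61 and 0.62. The difference between the medians was 0.30 as reported and ranged from 0.20 to 0.34 over 12 alternative settings. Higher and lower below refer to the 75th-percentile scale unless another is named.

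**Figure D2:**
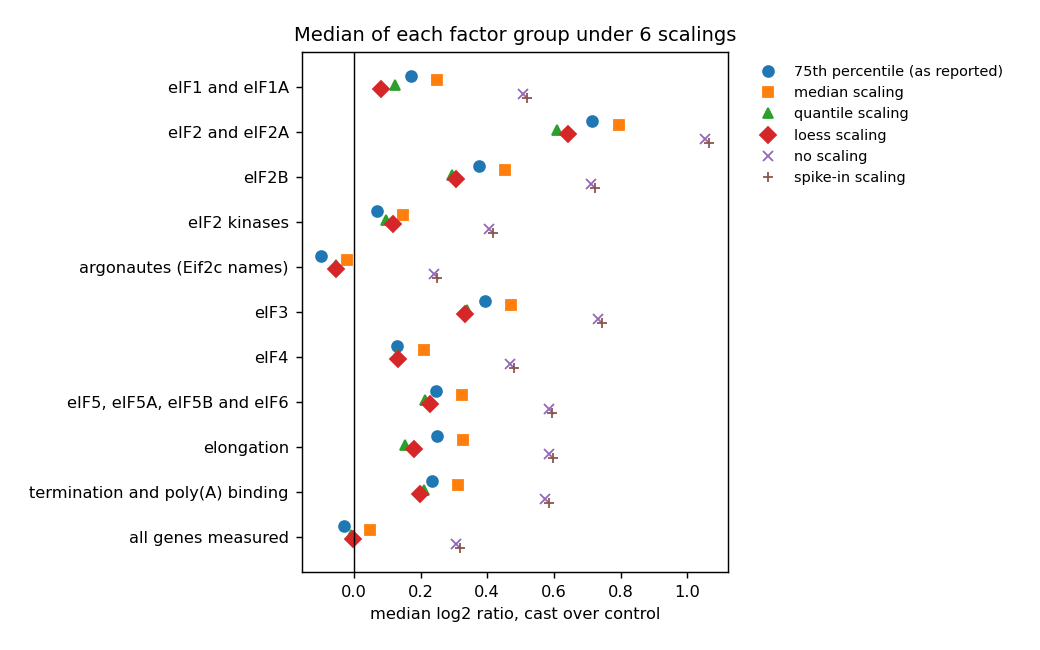
Median log2 ratio of cast over control for each factor group and for all measured genes under 6 scalings, 1 symbol per scaling. Unscaled and spike-in scaled signals shift every group to the right by about the same amount as all genes, and eIF2 and eIF2A are highest and the argonautes lowest under all 6, while groups between them change places.

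The eIF2 complex, made of an alpha, a beta and a gamma subunit, held the highest group median with the brightest probe of each gene, 0.71 over 5 genes including Eif2a. The gamma subunit, which binds GTP and the initiator tRNA, is encoded on both sex chromosomes in mice. The Y copy Eif2s3y had a scaled signal of 869 in cast muscle and 481 in control muscle, a log2 ratio of 0.85 ± 0.08. The X copy Eif2s3x had 504 in cast muscle and 284 in control muscle, a log2 ratio of 0.83 ± 0.08. The pair thus had nearly equal ratios, and their probes share no run longer than 5 bases. A second, dimmer Eif2s3x probe nearer the 3′ end gave a smaller log2 ratio of 0.22 ± 0.09.

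The beta subunit Eif2s2 gave 4481 in cast muscle and 2731 in control muscle at its brightest probe, a log2 ratio of 0.71 ± 0.08. Its downstream probe, the one shown above, gave 457 in cast muscle and 456 in control muscle, so the gene's difference rests on 1 of its 2 probes. The alpha subunit Eif2s1, the target of the eIF2 kinases, had 502 in cast muscle and 527 in control muscle, a log2 ratio of -0.07 ± 0.08, within 1 spot-level SD of 0 and above 0 with median, no or spike-in scaling. Eif2a, a separate factor that despite its name is not the alpha subunit, had a log2 ratio of 0.37 ± 0.09, with 197 in cast muscle and 153 in control muscle. When probes of a gene were averaged, or all combined by their median, the group median was 0.37, no longer the highest, since eIF3 stood at 0.39.

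All 5 subunits of eIF2B, the exchange factor that reactivates eIF2, had log2 ratios above 0, also under each of the 12 alternatives. Their median was 0.37, and of all genes 46.7% had ratios above 0 on the reported scale. Eif2b3, a subunit of the catalytic part, was highest with 231 in cast muscle and 152 in control muscle, a log2 ratio of 0.60 ± 0.09, and its other probe gave 0.57. Eif2b5, the catalytic subunit itself, was lowest with 420 in cast muscle and 403 in control muscle, a log2 ratio of 0.06 ± 0.08. Between them were the regulatory subunits Eif2b1 (0.55 ± 0.08), Eif2b2 (0.37 ± 0.08) and Eif2b4 (0.26 ± 0.08).

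The 4 kinases that phosphorylate eIF2 and thereby slow initiation did not move together, with a median of 0.07. Eif2ak1, the haem-regulated kinase, was highest with 85.3 in cast muscle and 76.4 in control muscle, a log2 ratio of 0.16 ± 0.10. The amino acid sensor Eif2ak4 had 0.11 ± 0.10, and the endoplasmic reticulum kinase Eif2ak3 had 0.02 ± 0.16. Eif2ak2, the interferon-induced kinase that senses double-stranded RNA, was lowest with 11.3 in cast muscle and 15.7 in control muscle, a log2 ratio of -0.48 ± 0.16. These are dim probes, and only the difference at Eif2ak2 exceeded 2 spot-level SDs.

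On the phosphatase side, which removes the mark those kinases set, 2 of 7 measured genes were at least 1.5-fold higher. None was at least 1.5-fold lower, and the median was -0.02. Over all genes 7.1% were at least 1.5-fold higher and 8.26% at least 1.5-fold lower. Ppp1r15a, the inducible subunit that brings the phosphatase to eIF2, had 1057 in cast muscle and 483 in control muscle, a log2 ratio of 1.13 ± 0.08. Ppp1ca, a catalytic subunit of protein phosphatase 1 with many other targets, had 8716 in cast muscle and 5520 in control muscle, a log2 ratio of 0.66 ± 0.08. Nck1, an adaptor protein, was lowest with 132 in cast muscle and 172 in control muscle, a log2 ratio of -0.38 ± 0.09. Atf4, a transcription factor whose mRNA is translated more when eIF2 is phosphorylated, had 9032 in cast muscle and 9259 in control muscle, a log2 ratio of -0.04 ± 0.08. Its protein was not measured.

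The eIF3 complex had a shared direction. All 13 measured subunits had log2 ratios above 0, against 46.7% of all genes, with a median of 0.39. The one exception over the 12 alternatives was Eif3k at -0.03 with quantile scaling. Eif3c, a subunit of the core, stood above the others with 8143 in cast muscle and 3948 in control muscle, a log2 ratio of 1.04 ± 0.08. Its upstream probe gave 3700 in cast muscle and 1985 in control muscle, a log2 ratio of 0.90 ± 0.08, so both probes were close to 2-fold higher. Eif3b, a scaffold subunit, had 572 in cast muscle and 374 in control muscle, a log2 ratio of 0.61 ± 0.08.

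The other 11 subunits were below 1.5-fold. Eif3l had a log2 ratio of 0.52 and the loosely bound Eif3j had 0.52, with 0.61 at its dimmer probe. Eif3f, Eif3e and Eif3g had nearly equal log2 ratios, at 0.40, 0.40 and 0.39, and Eif3m (0.38), Eif3h (0.36), Eif3a (0.32), Eif3d (0.32) and Eif3i (0.25) followed. Eif3k, a peripheral subunit, was lowest with 4269 in cast muscle and 3980 in control muscle, a log2 ratio of 0.10 ± 0.08. Neighbours in this order differ by less than the spot-level SD of 0.08, apart from the steps beside Eif3c, Eif3b and Eif3k and the step between Eif3j and Eif3f.

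**Figure D3:**
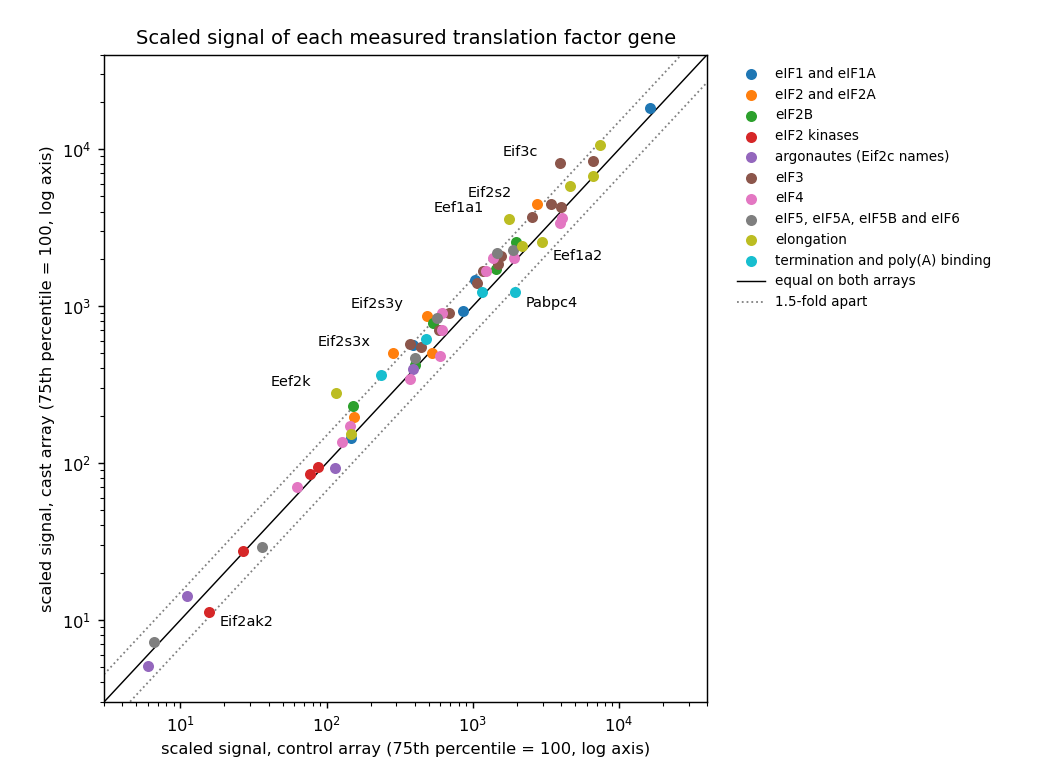
Scaled signal of each measured gene on the cast array (vertical, log axis) against the control array (horizontal, log axis), 1 point per gene coloured by factor group. The solid line marks equal signals and dotted lines 1.5-fold. Eef2k (280 in cast, 116 in control), Eef1a1 and Eif3c lie highest above the line, and Pabpc4 (1227 in cast, 1926 in control) lies below it.

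The eIF1 and eIF1A group, named for factors that help to choose the start codon, had a median of 0.17 over 5 genes. None was 1.5-fold apart, where over all genes 7.1% were at least 1.5-fold higher and 8.26% at least 1.5-fold lower. Eif1 had 18208 in cast muscle and 16187 in control muscle, a log2 ratio of 0.17 ± 0.08. The gene listed as Eif1ay, whose accession is now named Eif1ax and whose probe lies on the X chromosome, had 1465 in cast muscle and 1028 in control muscle, a log2 ratio of 0.51 ± 0.08. Its relative Eif1a was lowest with 145 in cast muscle and 147 in control muscle, a log2 ratio of -0.02 ± 0.09, and Eif1b had 0.11 ± 0.08. Eif1ad, a protein that resembles eIF1A, was highest with 567 in cast muscle and 388 in control muscle, a log2 ratio of 0.55 ± 0.08. Its downstream probe gave 351 in cast muscle and 365 in control muscle, a log2 ratio of -0.06 ± 0.08, so its probes do not agree on a direction.

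The eIF4 factors, which bind the cap and prepare the mRNA, were mixed. Of 12 measured genes 8 were above 0, against 46.7% of all genes, with a median of 0.13. None was 1.5-fold apart, where over all genes 7.1% were at least 1.5-fold higher and 8.26% at least 1.5-fold lower. The helicase cofactor Eif4b was highest with 899 in cast muscle and 610 in control muscle, a log2 ratio of 0.56 ± 0.08, and its 2 other probes gave 0.48 and 0.38. The helicase Eif4a1 had 2027 in cast muscle and 1376 in control muscle, a log2 ratio of 0.56 ± 0.08, whereas its close relative Eif4a2 had 3369 in cast muscle and 3936 in control muscle, a log2 ratio of -0.22 ± 0.08. The Eif4a2 ratio turned positive on unscaled (0.11) and spike-in scaled (0.13) signals, and stayed below that of Eif4a1, at 0.90 and 0.91.

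The large scaffolds of the cap complex also differed from each other. Eif4g1, the main scaffold, had 3639 in cast muscle and 4084 in control muscle, a log2 ratio of -0.17 ± 0.08, which turned positive on unscaled and on spike-in scaled signals. Eif4g3, a related scaffold, had 1670 in cast muscle and 1225 in control muscle, a log2 ratio of 0.45 ± 0.08, and 0.71 ± 0.16 at a dim probe. Eif4g2, which lacks the part that binds the cap-binding protein, had 0.19 ± 0.08. The remaining members were Eif4enif1, the nuclear import partner of the cap-binding protein (0.25 ± 0.09), Eif4e3 (0.17 ± 0.10), the exon junction helicase Eif4a3 (0.09 ± 0.09), Eif4h (0.07 ± 0.08) and Eif4e2 (-0.10 ± 0.08, and 0.30 ± 0.16 at a dim probe).

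The cap-binding protein gene Eif4e was the lowest of the eIF4 factors at its downstream pair of probes. The brighter of these gave 478 in cast muscle and 591 in control muscle, a log2 ratio of -0.31 ± 0.08. The one nearer the 3′ end gave 123 in cast muscle and 196 in control muscle, a log2 ratio of -0.67 ± 0.09. The 5′ pair went the other way, at very low signal. The probe shown above had 22.9 in cast muscle and 2.28 in control muscle. It was not well above background in control muscle, where the detection floor, the lowest signal so called, was 3.40, so it was at least 6.73-fold higher in cast muscle. The other, at chr3:138189716-138189775, had 7.07 in cast muscle and 2.35 in control muscle, at least 2.08-fold higher by the same bound. Such a bound sets the cast value against the higher of that floor and the probe's own control value. Which transcript the 5′ probes read was not tested, and their accessions are not matched to Eif4e by the reference table. Where all 4 probes were combined by their median, the Eif4e ratio was 0.64, and at the brightest probe it was 0.03 on unscaled and 0.04 on spike-in scaled signals, so its sign depends on the probes counted and on the scaling.

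Among regulators of the cap complex and of the mTOR pathway that controls it, 2 of 13 measured genes were at least 1.5-fold higher. None was at least 1.5-fold lower, and the median was 0.04. The shares over all genes were 7.1% higher and 8.26% lower. Eif4ebp1, a repressor that sequesters eIF4E when mTOR is inactive, had 3544 in cast muscle and 1486 in control muscle, a log2 ratio of 1.25 ± 0.08. Mknk2, a kinase that phosphorylates eIF4E, had 14515 in cast muscle and 6995 in control muscle, a log2 ratio of 1.05 ± 0.08. The lowest was Pdcd4, an inhibitor of the eIF4A helicase, with 1021 in cast muscle and 1353 in control muscle, a log2 ratio of -0.41 ± 0.08. The kinase gene Mtor itself had a log2 ratio of 0.14 ± 0.10.

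The group of eIF5, eIF5A, eIF5B and eIF6 had a median of 0.25 over 6 genes. Eif6, which keeps the ribosomal subunits apart, was highest with 845 in cast muscle and 567 in control muscle, a log2 ratio of 0.58 ± 0.08, just short of 1.5-fold, and its other probe gave 0.54. Eif5, which triggers GTP hydrolysis by eIF2, had 2162 in cast muscle and 1471 in control muscle, a log2 ratio of 0.56 ± 0.08, and 0.16 at its upstream probe. Eif5a, a factor that relieves stalled ribosomes and carries the amino acid hypusine, had 0.29 ± 0.08. Its second gene Eif5a2 was lowest with 29.3 in cast muscle and 36.2 in control muscle, a log2 ratio of -0.31 ± 0.16, which turned positive on unscaled and on spike-in scaled signals. The predicted gene Eif5al3 had 0.21 ± 0.08, and the subunit-joining factor Eif5b, read by a dim probe, had 0.14 ± 0.16. Both hypusine enzymes were above 0, Dhps with 708 in cast muscle and 487 in control muscle (0.54 ± 0.08) and Dohh with 1308 in cast muscle and 1218 in control muscle (0.10 ± 0.08).

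Of the listed genes for scanning, ribosome recycling and rescue, 8 of 9 measured were above 0, against 46.7% of all genes. Their median was 0.32. At least 1.5-fold higher was 1 gene, against 7.1% of all genes. That gene was Abcf1, an ATPase that binds eIF2, with 2052 in cast muscle and 1365 in control muscle. Its log2 ratio was 0.59 ± 0.08, and 0.48 at its other probe. The lowest was the helicase Ddx3x with 984 in cast muscle and 1017 in control muscle, a log2 ratio of -0.05 ± 0.08. The Ddx3x ratio was above 0 with median, no or spike-in scaling and with normexp background correction. It was -0.19 with the gene's probes averaged, and its lowest probe gave -0.38. The remaining gene, Gspt2, was not well above background on both arrays.

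Elongation held the largest single difference and the widest spread between relatives. Eef2k had 280 in cast muscle and 116 in control muscle at its downstream probe, a log2 ratio of 1.27 ± 0.09. The upstream probe gave 227 in cast muscle and 104 in control muscle, a log2 ratio of 1.12 ± 0.09. Both probes were thus more than 2-fold higher in cast muscle, and under the 12 alternatives the gene stayed between 1.01 and 1.62. Its substrate Eef2, the factor that moves the ribosome by a codon, had 10688 in cast muscle and 7411 in control muscle, a log2 ratio of 0.53 ± 0.08. The phosphorylation of the protein was not measured.

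Eef1a1 had 3597 in cast muscle and 1775 in control muscle at its brighter probe, a log2 ratio of 1.02 ± 0.08, and 1388 in cast muscle and 762 in control muscle at the overlapping one, 0.86 ± 0.08. Eef1a2, the form of adult muscle, had 2573 in cast muscle and 2952 in control muscle, a log2 ratio of -0.20 ± 0.08. The ratios of the pair were 1.22 apart on the log2 scale, with a spot-level SD of 0.11 for that difference. Eef1a1 at its brighter probe was therefore 2.33-fold higher in cast muscle relative to Eef1a2. A common scale factor does not change this value. The overlapping Eef1a1 probe, at 0.86, gives a smaller one, and the brighter probe has a further RefSeq transcript listed. The sign of Eef1a2 alone is less settled, as it was 0.14 on unscaled signals and 0.15 on spike-in scaled ones. Eef1a1 remained between 0.94 and 1.37 over the 12 alternatives. Which of the genes was more abundant cannot be read from the arrays, since different probes bind with different strength.

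The subunits that reload eEF1A with GTP differed less. Eef1b2 had 5839 in cast muscle and 4585 in control muscle, a log2 ratio of 0.35 ± 0.08. Eef1g had 0.15 ± 0.08, with 0.09 at its other probe. Eef1e1, a protein of the tRNA synthetase complex, had 0.07 ± 0.09. Eef1d had 6701 in cast muscle and 6658 in control muscle, a log2 ratio of 0.01 ± 0.08, and its sign turned under quantile or loess scaling. The elongation group as a whole had a median of 0.25, with 7 of 8 genes above 0, against 46.7% of all genes.

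**Figure D4:**
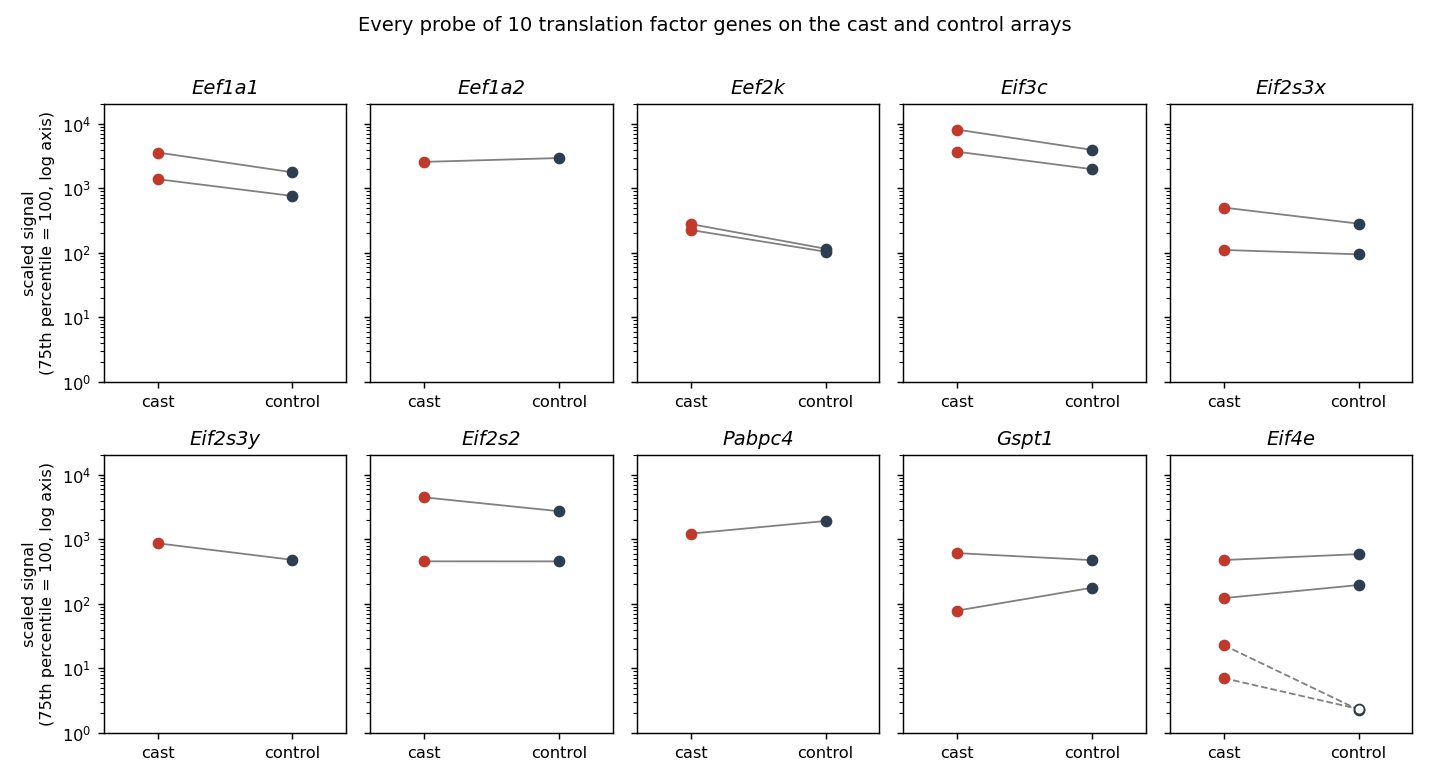
Scaled signal (log axis) of every probe of 10 genes on the cast array (left, red) and the control array (right, dark blue), with a line joining the values of each probe. Open circles and dashed lines mark Eif4e probes not well above background in control muscle. The Eef1a1, Eef2k and Eif3c probes are all higher in cast muscle, while the Gspt1 and Eif4e probes run in both directions.

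The termination and poly(A) genes included the one member at least 1.5-fold lower. Pabpc4, an inducible poly(A)-binding protein, had 1227 in cast muscle and 1926 in control muscle, a log2 ratio of -0.65 ± 0.08. It was read by a single probe and was below 0 under every alternative, between -0.71 and -0.30. The main cytoplasmic poly(A)-binding protein Pabpc1 had 1236 in cast muscle and 1149 in control muscle, a log2 ratio of 0.11 ± 0.08. Their probes share no run longer than 6 bases. Etf1, the release factor that recognises stop codons, had 366 in cast muscle and 234 in control muscle, a log2 ratio of 0.64 ± 0.09.

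Gspt1, the GTPase partner of Etf1, gave opposite results at its probes. The upstream one had 612 in cast muscle and 476 in control muscle, a log2 ratio of 0.36 ± 0.08. The downstream one had 78.8 in cast muscle and 178 in control muscle, a log2 ratio of -1.18 ± 0.09. The gap exceeds the spot-level SDs, and no direction can be given for the gene as a whole. The upstream probe is the one whose printed end holds AATAAA. Which transcripts each probe reads was not tested. With probes averaged, Gspt1 was at -0.41 and the median of the 4 genes was -0.15 instead of 0.23.

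Of the listed partners of poly(A)-binding proteins, 5 of 7 were measured, 2 were above 0, none was 1.5-fold apart, and the median was -0.17. Over all genes 46.7% were above 0, 7.1% were at least 1.5-fold higher and 8.26% at least 1.5-fold lower. The highest was the nuclear poly(A)-binding protein Pabpn1 with 1775 in cast muscle and 1370 in control muscle, a log2 ratio of 0.37 ± 0.08. The lowest was Paip2b, an inhibitor of poly(A)-binding protein, with 365 in cast muscle and 495 in control muscle, a log2 ratio of -0.44 ± 0.08.

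The argonautes, which the array names Eif2c but which act in small RNA silencing, were not higher as a group. Their median was -0.10, against -0.03 for all genes, and 2 of 4 were above 0, against 46.7% of all genes. Ago1 (listed as Eif2c1) had 14.2 in cast muscle and 11.0 in control muscle, a log2 ratio of 0.36 ± 0.16, and Ago4 (listed as Eif2c4) had 92.2 in cast muscle and 114 in control muscle, -0.31 ± 0.09. Ago2 (listed as Eif2c2), the argonaute that cleaves its target, had 396 in cast muscle and 388 in control muscle, a log2 ratio of 0.03 ± 0.08, and Ago3 (listed as Eif2c3) had -0.23 ± 0.16. Without the argonautes and the 4 eIF2 kinases, 49 of 58 members had positive ratios, with a median of 0.34. The kinase Eef2k is still among these 58.

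Over the 23 members with several measured probes, the median range between a gene's probes was 0.15 on the log2 scale, and 19 had all probes in the same direction. The probe nearest the 3′ end had a lower ratio than the probe nearest the 5′ end in 13 of the 23 (56.5%), against 50.9% of the 3480 genes of the array with several measured probes. Where the gap was over 0.3, this was so for 5 of 7 members and 60.2% of 986 genes. The 5 members were Eif2s2, Eif2s3x, Eif1ad, Eif4e and Gspt1, and the exceptions were Eif5 and Eif4e2. These genes were singled out after their values were seen.

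The mitochondrial translation factors, which serve the separate ribosomes of mitochondria, lay on the other side. All 9 listed genes were measured and all had log2 ratios below 0, against 8394 of the 15753 genes measured. The list's median was -0.44. However, 3 of the 9 were positive on unscaled and on spike-in scaled signals, where the list's median was -0.10 and -0.09. Relative to the median of all genes the list lay between -0.31 and -0.49 over the 12 alternatives. At least 1.5-fold lower were 2 of the 9 genes, against 8.26% of all genes. Gfm2, which recycles mitochondrial ribosomes, had 512 in cast muscle and 797 in control muscle, a log2 ratio of -0.64 ± 0.08. Its other probe gave -0.22, so the gene's 1.5-fold call rests on 1 of its 2 probes. Mrrf, the partner of Gfm2 in recycling, had 129 in cast muscle and 194 in control muscle, a log2 ratio of -0.59 ± 0.09. The other Mrrf probe gave -0.69. Tufm, the mitochondrial counterpart of elongation factor 1A, had 890 in cast muscle and 1261 in control muscle, a log2 ratio of -0.50 ± 0.08. The highest was the release factor gene Mtrf1 with 171 in cast muscle and 199 in control muscle, a log2 ratio of -0.22 ± 0.09.

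**Figure D5:**
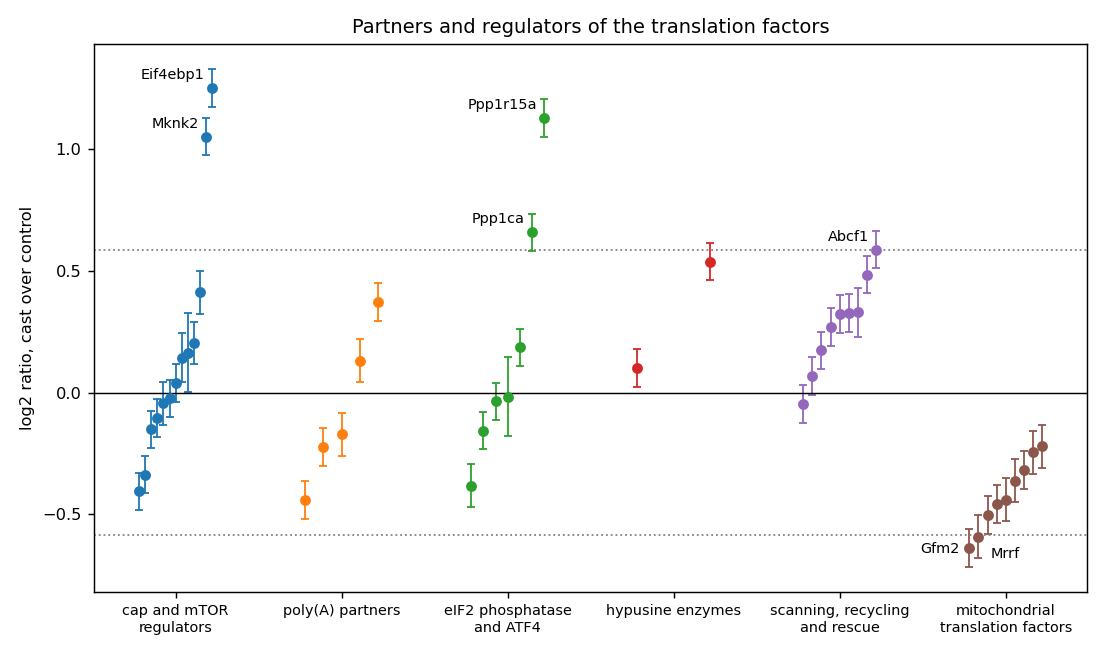
Log2 ratio of cast over control for the measured genes of 6 partner lists, 1 point per gene with ± 1 spot-level SD, and dotted lines at 1.5-fold. Eif4ebp1, Mknk2 and Ppp1r15a lie above 1.0, and all 9 mitochondrial translation factors lie below 0.

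Many mRNAs of the translation machinery begin with a C followed by a run of pyrimidines, the 5′ TOP element through which mTOR controls their translation. A list of 10 translation factors known to carry it had 10 of 10 log2 ratios above 0, with a median of 0.38, ranging from 0.01 for Eef1d to 1.02 for Eef1a1. All 10 are members whose values are already counted above. Of all 66 measured members 81.8% were above 0, with a median of 0.27, and of all genes 46.7%. With quantile or loess scaling 9 of the 10 were above 0. To show the letters at the start of such genes, 40 bases around the annotated start are given from the RefSeq promoter table on GRCm38.p6, from 20 before to 20 from the start onward, with the longest run of C and T near the start in capitals. Eef1a1, chr9:78481705-78481744 on the minus strand, and Eif3f, chr7:108934395-108934434 on the plus strand, are on the TOP list. The eIF2 gamma genes shown are Eif2s3x, chrX:94212632-94212671 on the minus strand, and Eif2s3y, chrY:1010575-1010614 on the plus strand. They were picked because their ratios were nearly equal at the brighter Eif2s3x probe, though not at the dimmer one. Eef1a2, chr2:181156996-181157035 on the minus strand, is shown as the partner that did not share the Eef1a1 difference.

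Eef1a1: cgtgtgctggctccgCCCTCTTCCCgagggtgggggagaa

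Eif3f: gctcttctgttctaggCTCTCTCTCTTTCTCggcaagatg

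Eif2s3x: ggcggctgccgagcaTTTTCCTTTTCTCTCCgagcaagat

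Eif2s3y: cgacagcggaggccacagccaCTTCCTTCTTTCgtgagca

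Eef1a2: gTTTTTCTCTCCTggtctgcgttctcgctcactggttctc

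The runs are 10, 15, 16, 12 and 12 bases long in that order. The Eef1a2 run lies wholly before its annotated start, the Eif2s3y run begins just after its start, and the others span theirs. The annotated start of Eef1a1 falls on a T within its run, and not on the C that opens a TOP element. Of the 67 member genes, 52 matched the promoter table. A run of at least 8 letters C or T on the gene's strand within 15 bases of an annotated start was found in 15 of the 52 (28.8%), in 3 of the 5 matched genes of the TOP list and in 20% of all 27025 genes with a promoter in the table. The same run on the other strand was found in 21.2% of members and 21.9% of all genes. The palindrome CACGTG lay between 250 bases before and 50 after an annotated start in 12 of the 52 members (23.1%) and in 8.09% of all genes. The members had 68 promoters for 52 genes and all genes 32851 for 27025, so members had slightly more sequence searched per gene. A match is a set of letters and not a bound site.

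Markers of other cells also differed between the pools, and their part in the results above was not tested. All 6 fibroblast markers had log2 ratios below 0, against 8394 of the 15753 genes measured. They ranged from -1.76 for Col1a1 to -0.07 ± 0.10 for Pdgfra, the latter within 1 spot-level SD of 0. Their signals summed to 13106 in cast muscle and 22431 in control muscle, with a median log2 ratio of -0.74. The endothelial list had 1 of 5 above 0 and a median of -0.32, with sums of 836 in cast muscle and 1132 in control muscle. Of the macrophage list, 6 of 7 were measured with a median of 0.25, and sums of 1626 in cast muscle and 1999 in control muscle. Both neutrophil markers were higher, with log2 ratios of 2.21 for S100a8 and 2.23 for S100a9, S100a9 reading 189 in cast muscle and 40.5 in control muscle. Of the satellite cell markers Cdh15 had 807 in cast muscle and 317 in control muscle, Pax7 had a log2 ratio of 0.08, and Myf5 was not well above background on both arrays. The Schwann cell, adipocyte, T cell and tendon lists had medians of -0.26, -0.17, 0.09 and -0.81 over 4, 2, 2 and 3 measured genes. The tendon list was split. Scx, its brightest marker, had 623 in cast muscle and 448 in control muscle, while the dim Tnmd and Mkx were lower. The tendon signals summed to 651 in cast muscle and 510 in control muscle.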

How the data were processed

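Per the submitters' processing notes, Agilent Feature Extraction 9.5 produced the spot intensities. The processed intensity is background-subtracted and detrended within the array, per the file headers. The authors' deposited series table also holds a linear intensity, with column medians of 8.7 for cast and 9.0 for control. By comparison it is the same signal as a percent of each array's 75th percentile, partly rounded (55.4% whole, tolerance 1e-09), so it served as an alternative.

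Here, log2 processed signals of 39429 non-control probes were averaged over replicate spots, and each array's 75th percentile was subtracted, 486.2 in cast and 384.6 in control. A gene took the value of its brightest probe that the scanner software flagged as well above background on both arrays, in over 0.5 of its spots. The spot-level SD came from 259 replicated probes in 4 brightness bins (median 0.10). No member probe was replicated. Precision is limited by having 1 array per group.

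The comparison was cast over control with no test. Calls were at least 1.5-fold and 2-fold. The 12 alternatives were other scalings, normexp background correction (limma 3.58.1, R 4.3.3, offset 50), the series table, other filters on dim probes and other ways to combine probes. The steps were tested on simulated data. Tables were made with Python 3.11.15 and pandas 2.3.3. Accessions of 94 of the 97 member probes matched the reference gene table, used for names alone.

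The members and lists were chosen with earlier results of these data known. Values in both arrays are given for the Eef1a pair, for the 12 members with the largest log2 ratio in either direction, for members at least 1.5-fold apart, for the highest and lowest of each factor group and for members whose probes disagree in sign by more than 0.5. Some further values were added after the data were seen. Of the partner lists, members at least 1.5-fold apart and the highest and lowest are named.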

Additional observations from a re-analysis of the deposited data

How the results depend on the processing

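No paired analysis was possible because each group is 1 array with no replicate number. For the same reason no replicate could be left out, and outliers within a group could not be sought. The members' median, 0.27 as reported, was 0.612 unscaled and 0.623 on the spike-in scale. The count at least 1.5-fold higher, 9 as reported, was 19 with median scaling (28.79% of members, against 9.41% of all genes) and 36 (54.55%) either unscaled (23.66% of all genes) or on the spike-in scale (24.4% of all genes). The count at least 1.5-fold lower, 1 as reported, was 0 with those 3 scalings. The count at least 2-fold apart, 3 as reported, was 1 with loess scaling, quantile scaling, the mean of measured probes or the median of all probes, and 6 unscaled or on the spike-in scale. Of the 9 raised members, 7 to 9 kept their call over the 12 alternatives. Eef1a1, 1.02 as reported, was 1.098 with median scaling, 1.357 unscaled, 0.94 with quantile scaling and 1.369 on the spike-in scale. Eef1a2, -0.20 as reported, was -0.119 with median scaling, -0.117 with normexp, -0.288 with quantile scaling, and above 0 at 0.14 unscaled and at 0.151 on the spike-in scale. Subtracting no percentile adds one constant to every log2 ratio, which by construction shifts every member alike. The argonaute median changed sign to 0.239 unscaled and 0.25 on the spike-in scale, and the median of the termination and poly(A) genes to -0.151 with the mean of measured probes and with the median of all probes, where the downstream Gspt1 probe enters. The dim kinase and argonaute probes have the widest spot-level SD, 0.16 at the lowest brightness.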
